A study of Caenorhabditis elegans with 10 samples.

Results

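Footprints at 20, 28 and 36 h were compared with those at 24 and 32 h, in larvae of the wild-type Caenorhabditis elegans strain N2. These are 5 of the 10 libraries of a time course of continuous development. The hours are counted from the time when hatched first-stage larvae were put on plates with NA22 bacteria. All 10 libraries came from whole, untreated worms, with 1 library every 2 h from 18 to 36 h, and the 5 were chosen by their labelled times alone. The larvae repeat a programme of gene activity about every 8 h, so times 8 h apart fall at one phase of it. The libraries at 20, 28 and 36 h (3 libraries) and those at 24 and 32 h (2 libraries) therefore stand in opposite phases, 4 h apart, and libraries of one phase served as repeats. Both groups have a mean time of 28 h, so a straight drift with age falls equally on both. Whether the libraries stem from separate cultures is not stated by the labels, so p-values measure only the spread between these libraries.

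The worm's body is covered by a cuticle of cross-linked collagens that the epidermis secretes anew before each moult, after which the old one is shed. A temporary matrix of non-collagen proteins, the precuticle, is laid down first and shapes the new layers, and different collagens are made in successive waves. The foregut, or pharynx, renews its own lining, which holds chitin, at the same moults. A footprint is the stretch of mRNA left after nuclease has removed what ribosomes do not cover, so a change in footprints can come from the mRNA level or from its translation, and these cannot be told apart here. In whole worms, fewer cells of a type and less RNA per cell cannot be told apart either.

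The comparison asked which genes had footprints that alternated between these times. Of 13647 genes tested, 1198 (8.78%) differed. Of these, 669 genes (4.9%) were higher at 20, 28 and 36 h, by a median of 3.34 log2 (10.1-fold), and 85 of them by at least 6 log2. The other 529 (3.88%) were higher at 24 and 32 h, with a median log2 difference of -2.17 (4.5-fold) and 2 genes past 6 log2. A call needed an adjusted p under 0.05 in edgeR's quasi-likelihood test, with linear time in the model, and a difference of at least 1 log2. The test had 2 residual degrees of freedom, and at an unadjusted p under 0.05 there were 3707 genes.

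The alternation was also followed cycle by cycle, since the 5 times span a first cycle (20 and 28 h around 24 h) and a second (28 and 36 h around 32 h) that share the 28 h library. Of the 669 genes, 632 differed by at least 1 log2 the same way in both cycles, and 662 had every library of one group above every library of the other. Of the 529, 468 did so in both cycles and 484 did not overlap. Over all tested genes, 985 (7.22%) were at least 1 log2 higher at 20, 28 and 36 h in both cycles and 825 (6.05%) were at least 1 log2 higher at 24 and 32 h. Groups did not overlap in 2291 (16.8%) and 2640 (19.3%) genes, in the same order. Among the 529 genes, 27 had cycles of opposite sign. All 27 were called as rising over the 16 h, had no count at 20 h and stood at 0.633 normalised CPM or less at 20, 24 and 28 h.

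The calls rest on both libraries of the smaller group. Without the 24 h library or without the 32 h library no gene was called in edgeR's quasi-likelihood test in either direction, at 2278 and 1863 genes with an unadjusted p under 0.05. Without the 20 h library 452 and 277 genes were called, without the 28 h library 1050 and 1025, and without the 36 h library 656 and 398. With no time term 376 and 185 were called. An exact permutation test of 3 libraries against 2 has 10 arrangements and cannot go below a one-sided p of 0.1, so single genes have no such test here.

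**Figure D1:**
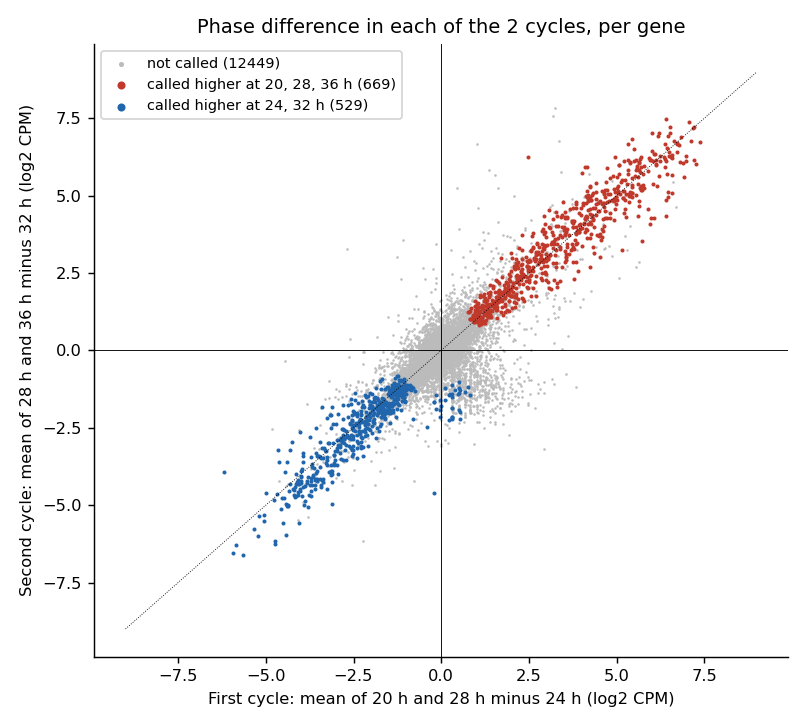
Each point is 1 tested gene, placed by its difference in the first cycle (x axis, mean log2 CPM of 20 and 28 h minus that of 24 h) and in the second cycle (y axis, mean of 28 and 36 h minus 32 h), red where called higher at 20, 28 and 36 h and blue where called higher at 24 and 32 h. Of the 669 red points 632, and of the 529 blue points 468, lie at least 1 log2 from 0 on the same side on both axes, and in 54 red and 65 blue points the cycles differ by 1 log2 or more.

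Library totals for the 5 times ran from 16723638 counts (24 h) to 23288789 counts (28 h). Between libraries 4 h apart, 2532 to 3733 genes differed by 2-fold or more. Between libraries 8 h apart the number was 2185 for 20 and 28 h, 2145 for 24 and 32 h and 2926 for 28 and 36 h. For 20 and 36 h, of one phase but 16 h apart, it was 3970. At 8-fold or more the 8 h pairs had 143, 1061 and 1262 genes, in the same order. The 4 h pairs had 627 (20 and 24 h), 724 (24 and 28 h), 1525 (28 and 32 h) and 898 (32 and 36 h). Libraries of one phase were therefore not always the more alike. With library totals alone as the scaling, the median difference of all tested genes moved from -0.04 to -0.22 log2, and 44.3% of calls were higher at 20, 28 and 36 h in place of 55.8%.

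Genes of the precuticle were higher at 24 and 32 h than at 20, 28 and 36 h. Of 9 tested members of that list, 8 were called higher at 24 and 32 h and none at 20, 28 and 36 h, and the median difference was -3.70 log2. The shares to set beside the counts of this and every later list are those of all tested genes. They were 3.88% higher at 24 and 32 h and 4.9% higher at 20, 28 and 36 h. The fibrillin-like matrix protein fbn-1 had 2216 at 24 h and 2074 at 32 h, against 67.8 at 20 h, 28.5 at 28 h and 15.7 at 36 h normalised CPM (counts scaled to a library of 1000000 and not divided by gene length). Both libraries of the 24 and 32 h phase stood far above the other 3, and the log2 difference was -6.13 ± 0.36 (SE, adjusted p = 0.00587). The zona pellucida protein let-653, a mucin-like component of the matrix in epithelial tubes, had 362 at 24 h and 282 at 32 h, against 24.2 at 20 h, 12.6 at 28 h and 5.86 at 36 h. Its log2 difference was -4.71 ± 0.24 (SE, adjusted p = 0.005).

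The leucine-rich repeat protein sym-1 had 1735 at 24 h and 1311 at 32 h, against 220.0 at 20 h, 56 at 28 h and 45.3 at 36 h normalised CPM. Its levels at 28 and 36 h were lower than at 20 h, and its log2 difference was -4.16 ± 0.40 (SE). noah-1, a large zona pellucida protein of the apical matrix, had 3856 at 24 h and 2535 at 32 h, against 1563 at 20 h, 275 at 28 h and 204 at 36 h, with a difference of -2.77 ± 0.46 log2 (SE, adjusted p = 0.0407). Its 20 h library lay nearer to the 32 h library than to those at 28 and 36 h. The member that was not called, dex-1 (chosen after its values were seen), had a difference of 0.29 log2. Without the 36 h library 2 genes of the list were called, and with no time term also 2.

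dpy-6, a mucin-like secreted protein needed for normal body length, had the largest difference of any gene named for this phase. It had 789.8 at 24 h and 841 at 32 h, against 11.2 at 20 h, 14.4 at 28 h and 5.5 at 36 h normalised CPM. The log2 difference was -6.32 ± 0.46 (SE, adjusted p = 0.00836). No overlap between groups was a condition for the 12 genes chosen by size in each direction. It is therefore no separate result for dpy-6, fbn-1 or let-653. With at most 3 genes of one class, fbn-1 came next, and let-653 was also among the 12 genes chosen by size in this direction. The collagens among them were col-149 (-5.83 log2), col-103 (-5.65) and col-42 (-5.57). The others were the channel subunit del-6 of the degenerin family (-5.61), the UDP-glucuronosyltransferase ugt-57 (-5.01) and the hedgehog-related ligand wrt-10 (-4.53). The cadherin cdh-7 (-4.52), fipr-1 (-4.44) and epic-2 (-4.39) completed the set.

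Furrow collagens and body-shape collagens were called in opposite directions. All 6 tested collagens of the annular furrows, the circumferential grooves of the cuticle, were higher at 24 and 32 h, with a median of -3.33 log2. dpy-7, the best known of them, had 632 at 24 h and 457 at 32 h, against 149 at 20 h, 35.3 at 28 h and 27.1 at 36 h normalised CPM, and dpy-10 had 655 at 24 h and 476 at 32 h, against 128 at 20 h, 30.2 at 28 h and 22.7 at 36 h. In both genes the 20 h library was several times above those at 28 and 36 h, yet below both libraries of the other phase. The log2 differences were -3.33 ± 0.39 and -3.62 ± 0.40 (SE), and none of the 6 was called without the 36 h library or with no time term, while all 6 had an unadjusted p under 0.05 with the 5 libraries.

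Of 10 tested collagens named for body shape, 8 were higher at 20, 28 and 36 h and none at 24 and 32 h, with a median difference of 2.84 log2. dpy-5 had 9088 at 20 h, 10080.0 at 28 h and 9790.0 at 36 h, against 509 at 24 h and 321 at 32 h normalised CPM. dpy-13 had 6708 at 20 h, 7465 at 28 h and 7311 at 36 h, against 388 at 24 h and 248 at 32 h. Both returned to similar levels at the 3 times of one phase, and their log2 differences were 4.57 ± 0.28 and 4.53 ± 0.27 (SE, adjusted p = 0.00569 for each). sqt-3, a collagen of the embryo and of each later stage, had 6672 at 20 h, 3055 at 28 h and 4750.0 at 36 h, against 938 at 24 h and 651 at 32 h and a log2 difference of 2.62 ± 0.36 (SE). lon-3 and rol-1, the members not called (chosen after their values were seen), had differences of 1.57 and 3.53 log2. Without the 20 h library 4 body-shape collagens were called, and with no time term 4.

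**Figure D2:**
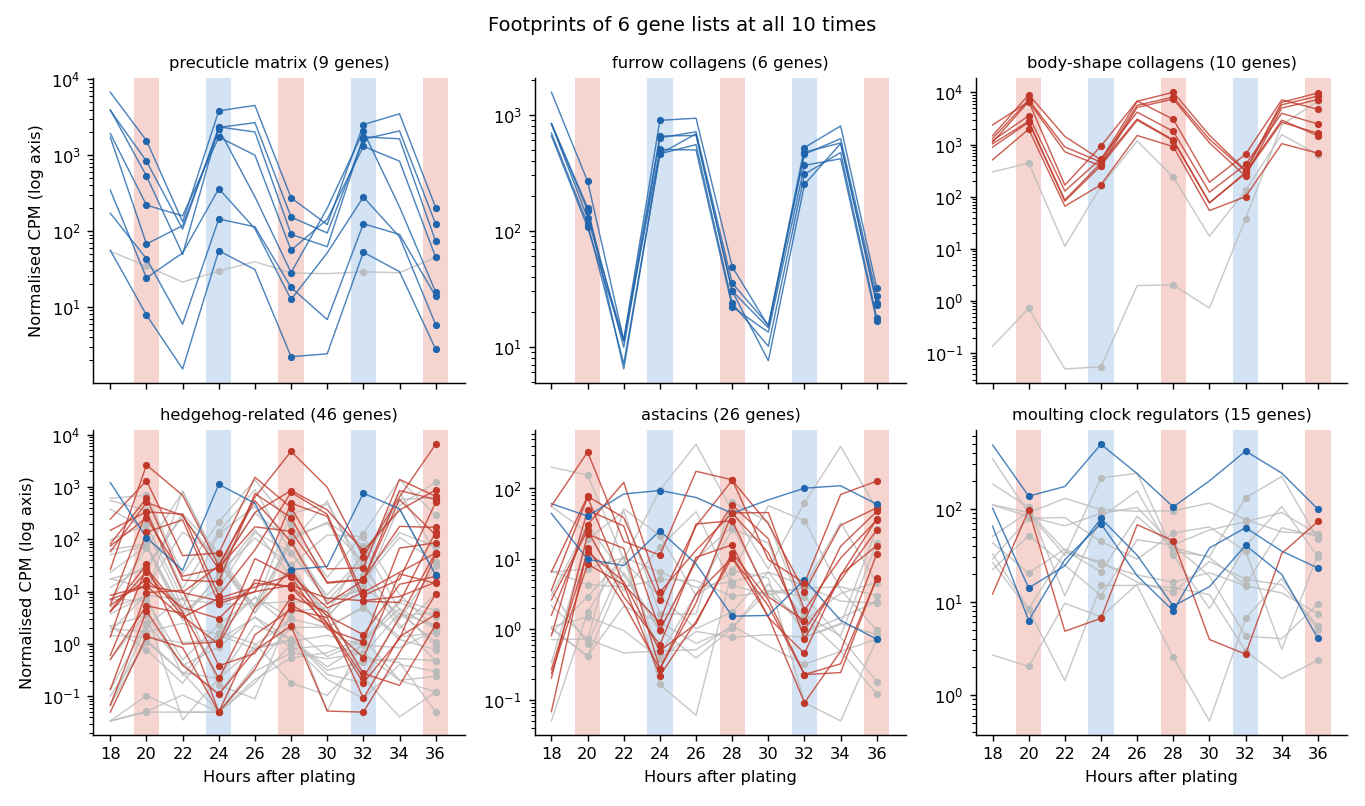
Each line is 1 tested gene followed over all 10 times (x axis, hours), with normalised CPM on a log y axis, points at the 5 times compared, red shading on 20, 28 and 36 h and blue shading on 24 and 32 h. Line colour gives the call (red higher at 20, 28 and 36 h, blue higher at 24 and 32 h, grey not called): the 6 furrow collagens and 8 of 9 precuticle genes are blue, and 8 of 10 body-shape collagens, 18 of 46 hedgehog-related genes and 10 of 26 astacins are red. The highest time of a gene can lie outside both sets of bands, as for the furrow collagen dpy-7 at 18 h (835 CPM).

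The large col class of cuticle collagens was divided. Of 134 tested, 36 were called higher at 20, 28 and 36 h and 10 at 24 and 32 h, and the median was 2.26 log2. A further 38 differed by at least 2 log2 without being called, and 29 rose over the 16 h. col-73 had 3981 at 20 h, 5858 at 28 h and 9253 at 36 h, against 208 at 24 h and 259.9 at 32 h normalised CPM, with a log2 difference of 4.70 ± 0.16 (SE, adjusted p = 0.00295). The level rose from each time of its phase to the next while the groups stayed apart. col-77 had 787 at 20 h, 4339 at 28 h and 11280.0 at 36 h, against 21.6 at 24 h and 101 at 32 h, with a log2 difference of 6.21 ± 0.36 (SE). In the opposite phase, col-149 had 1920.0 at 24 h and 2403 at 32 h, against 48.6 at 20 h, 22.4 at 28 h and 42.5 at 36 h and a log2 difference of -5.83 ± 0.43 (SE, adjusted p = 0.0088). Without the 28 h library 59 and 14 col genes were called, without the 20 h library 37 and 6, and with no time term 17 and 4.

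col-120 was also called higher at 20, 28 and 36 h (6.47 log2), but its counts overlapped between the groups and lay almost all in 1 library. It had 0.0519 at 20 h, 1.58 at 28 h and 1584 at 36 h, against 0 at 24 h and 0.593 at 32 h normalised CPM. The collagen of the adult cuticle col-19 was not called. It had 2.28 at 20 h, 3.52 at 28 h and 176 at 36 h, against 6.98 at 24 h and 3.06 at 32 h, with its 36 h library far above the other 4.

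Enzymes that fold and process collagen were mostly not called: 2 of 14 were higher at 24 and 32 h, none was higher at 20, 28 and 36 h, and the median was 0.04 log2 (-0.15 with total counts alone). The called genes were the disulphide isomerase pdi-1, with 1563 at 24 h and 1936 at 32 h, against 666 at 20 h, 681 at 28 h and 956 at 36 h normalised CPM, and dpy-31, an astacin that trims procollagen, with 140.4 at 24 h and 138 at 32 h, against 69 at 20 h, 65.5 at 28 h and 47.9 at 36 h. Neither gene's groups overlapped, and the log2 differences were -1.18 ± 0.12 and -1.20 ± 0.15 (SE). The isomerase pdi-2 had a log2 difference of -0.71 ± 0.23 (SE, adjusted p = 0.147) and was not called. Without the 20 h library or with no time term neither was called. In the list of ER entry, folding and vesicle coat genes, 1 of 42 was called, the ER chaperone enpl-1, which had 1685 at 24 h and 1772 at 32 h, against 728 at 20 h, 768 at 28 h and 732 at 36 h and a log2 difference of -1.20 ± 0.12 (SE). It was not called without the 20 h library.

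Cuticlins, insoluble non-collagen proteins of the cuticle, were called in both directions, with a median of 0.27 log2. Of 30 tested, 5 were higher at 20, 28 and 36 h and 3 at 24 and 32 h (4.9% and 3.88% of all tested genes). cut-2 had 10140.0 at 20 h, 8655 at 28 h and 3732 at 36 h, against 141 at 24 h and 69.7 at 32 h normalised CPM. Its level at 36 h was below those at 20 and 28 h and still far above both libraries of the other phase, and the log2 difference was 6.16 ± 0.32 (SE, adjusted p = 0.005). Without the 28 h library 8 and 5 cuticlins were called.

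The hedgehog-related genes encode secreted proteins of the warthog, groundhog and ground-like families, which worms carry in place of a classical hedgehog ligand. Of 46 tested, 18 were higher at 20, 28 and 36 h and 1 at 24 and 32 h. Their median was 1.67 log2. grl-16 had 2655 at 20 h, 4815 at 28 h and 6562 at 36 h, against 31 at 24 h and 46.9 at 32 h normalised CPM. The 3 high libraries rose with age while both low ones stayed low, and the log2 difference was 6.86 ± 0.20 (SE, adjusted p = 0.00216). wrt-8 had 27.8 at 20 h, 26.3 at 28 h and 56 at 36 h, against 0.22 at 24 h and 0.228 at 32 h, and its ratio of scaled counts was 157 with a 95% exact interval of 82.6 to 344 for counting error only, since 9 counts in all stood at 24 and 32 h. The single member in the other direction, wrt-10, had 1126 at 24 h and 761.9 at 32 h, against 108 at 20 h, 26.5 at 28 h and 20.7 at 36 h and a log2 difference of -4.53 ± 0.38 (SE). Without the 20 h library 10 members were called higher at 20, 28 and 36 h, without the 28 h library 26, and with no time term 9.

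Relatives of patched, membrane proteins with a sterol-sensing domain, were called higher at 20, 28 and 36 h in 8 of 26 cases and higher at 24 and 32 h in 1, with a median of 0.79 log2. ptr-16 had 177 at 20 h, 91.1 at 28 h and 118 at 36 h, against 1.37 at 24 h and 1.92 at 32 h normalised CPM and ptr-18 had 329 at 20 h, 139 at 28 h and 202 at 36 h, against 14.8 at 24 h and 6.84 at 32 h. ptc-3, a homologue of patched itself, had 770.0 at 20 h, 462 at 28 h and 552 at 36 h, against 128 at 24 h and 114 at 32 h. None of the 3 overlapped between groups, and their log2 differences were 6.25 ± 0.43, 4.42 ± 0.46 and 2.30 ± 0.20 (SE). The member higher at 24 and 32 h was ptr-10 at -4.15 log2 (chosen after its values were seen), and it was not called without the 36 h library.

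Astacins are zinc metalloproteases, several of which cut the old cuticle or process its collagens. Of 26 tested, 10 were higher at 20, 28 and 36 h and 2 at 24 and 32 h. Their median was 3.90 log2. nas-15 had 330.2 at 20 h, 133 at 28 h and 127 at 36 h, against 11.3 at 24 h and 4.52 at 32 h normalised CPM. nas-36, which is needed to shed the cuticle, had 77.3 at 20 h, 130.5 at 28 h and 53.2 at 36 h, against 2.58 at 24 h and 3.42 at 32 h, and its log2 difference was 4.86 ± 0.59 (SE, adjusted p = 0.0216). nas-7 and nas-13 had log2 differences of 5.82 ± 0.31 and 6.08 ± 0.42 (SE), with 34 and 7 counts in all at 24 and 32 h. The 2 genes of the other direction, nas-3 and nas-11 (chosen after their values were seen), had differences of -2.35 and -1.01 log2 and were not called without the 20 h library or with no time term.

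Among 14 genes needed for moulting, 3 were higher at 20, 28 and 36 h and 2 at 24 and 32 h (4.9% and 3.88% of all tested genes). The list's median was 0.22 log2. mlt-10 had 1088 at 20 h, 573 at 28 h and 943 at 36 h, against 57.6 at 24 h and 40.1 at 32 h normalised CPM, with a log2 difference of 4.18 ± 0.38 (SE). The others were nas-36 and the protease-inhibitor-like bli-5, which had 20.1 at 20 h, 29.5 at 28 h and 23.5 at 36 h, against 2.69 at 24 h and 2.37 at 32 h and 3.29 ± 0.27 log2 (SE). In the opposite phase stood mlt-11, a multi-domain Kunitz protease inhibitor, with 3704 at 24 h and 2397 at 32 h, against 1401 at 20 h, 277 at 28 h and 267 at 36 h. As for noah-1, its 20 h library was several times above those at 28 and 36 h, and its log2 difference was -2.58 ± 0.44 (SE, adjusted p = 0.0431). The remaining call was the leucine-rich repeat protein pan-1 at -1.68 log2 (chosen after its values were seen). Without the 28 h library 6 and 2 of the 14 were called, and without the 36 h library or with no time term 3 and 1.

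**Figure D3:**
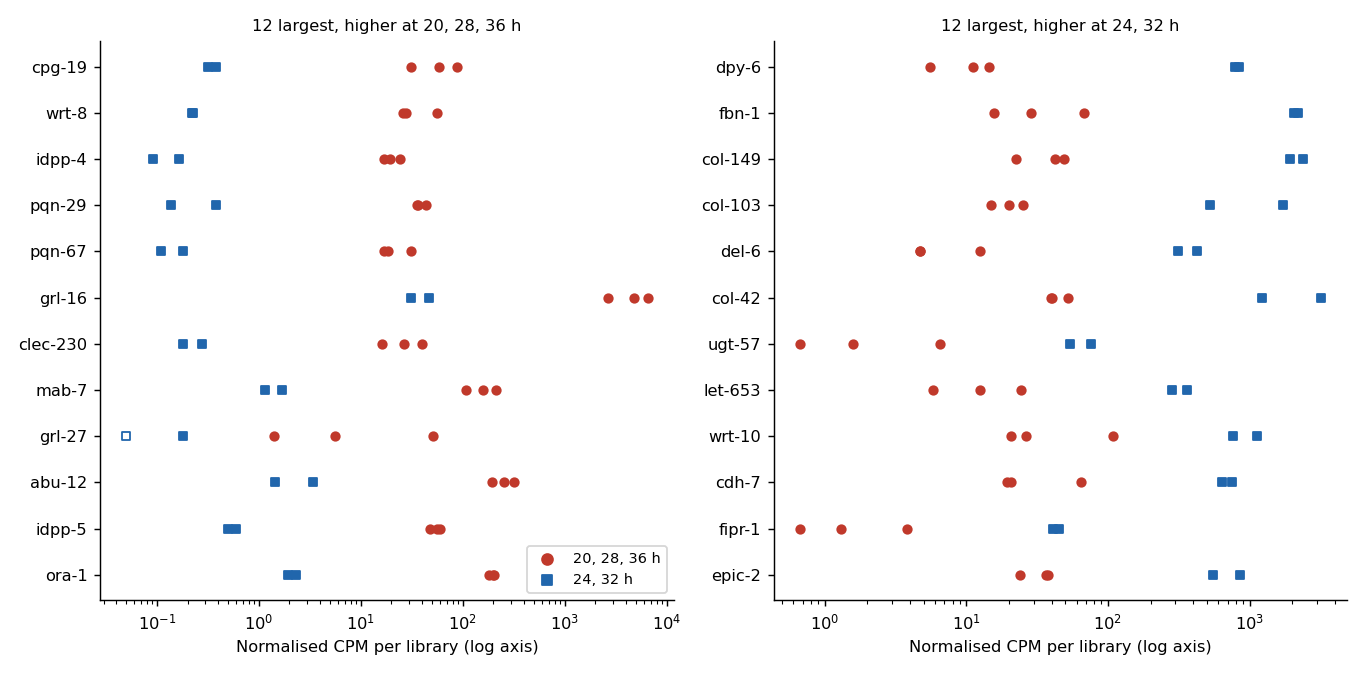
Normalised CPM (x axis, log scale) in each of the 5 libraries for 12 genes per direction, red circles for 20, 28 and 36 h and blue squares for 24 and 32 h; an open square is a count of 0. They are the largest called differences among genes with a class symbol, a mean of at least 10 CPM and no overlap between groups, at most 3 of one class. The gap between circles and squares was a condition of the choice. For grl-27 the circles alone span 1.40 to 51.5 CPM.

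The lining of the pharynx was followed through its chitin synthase and the abu genes. chs-2, the chitin synthase of the pharynx, had 84.3 at 20 h, 47.7 at 28 h and 43.7 at 36 h, against 2.47 at 24 h and 1.28 at 32 h normalised CPM and a log2 difference of 4.98 ± 0.23 (SE, adjusted p = 0.00423), with groups that did not overlap. chs-1, the synthase used for the eggshell, had 37 counts in all at 20, 28 and 36 h and 35 at 24 and 32 h, with a log2 difference of -0.32 ± 0.74 (SE), and was not called. All 11 tested abu genes, glutamine-rich proteins of the pharyngeal cuticle, had positive differences with no overlap between groups, with a median of 4.22 log2, but 4 were called, and 9 without the 28 h library. In the other 5 libraries 7 abu genes were higher at 22 and 30 h and 1 at 18, 26 and 34 h, with a median of 6.95 log2. abu-14 had 1122 at 20 h, 1249 at 28 h and 737 at 36 h, against 23.3 at 24 h and 13 at 32 h and a log2 difference of 5.89 ± 0.34 (SE). The abu, idpc and fipr families hold near-identical copies, and the labels do not say how reads that fit several copies were counted, so their single values are uncertain.

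The idpc genes and the fipr genes, small disordered or secreted proteins of the pharynx, stood on opposite sides. Of the 19 tested in both, 5 idpc genes were higher at 20, 28 and 36 h and 2 fipr genes at 24 and 32 h, and the median was -0.75 log2. idpc-1 had 208 at 20 h, 502 at 28 h and 366 at 36 h, against 5.82 at 24 h and 6.75 at 32 h normalised CPM and fipr-1 had 41.3 at 24 h and 45.1 at 32 h, against 1.3 at 20 h, 3.8 at 28 h and 0.665 at 36 h. Their log2 differences were 5.83 ± 0.49 and -4.44 ± 0.75 (SE), and the 2 fipr genes were not called without the 20 h library. Without the 28 h library 7 and 10 genes of both families were called, and with no time term 3 and 1.

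The 8 phat genes, expressed in pharyngeal glands, were split as well, with a median of -0.37 log2. Higher at 20, 28 and 36 h were 4 of them, and 3 at 24 and 32 h (4.9% and 3.88% of all tested genes). phat-2 had 297 at 20 h, 265 at 28 h and 156 at 36 h, against 13.9 at 24 h and 10.7 at 32 h normalised CPM, and its log2 difference was 4.27 ± 0.20 (SE, adjusted p = 0.00423). phat-3 had 10.7 at 24 h and 16.5 at 32 h, against 1.09 at 20 h, 0.994 at 28 h and 0.423 at 36 h and a log2 difference of -4.03 ± 0.47 (SE). Neither overlapped between groups. Without the 20 h library 2 and 0 were called, and with no time term 2 and 1.

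Further genes with the largest differences at 20, 28 and 36 h were the nematode antigen homologue ora-1, the epidermal gene mab-7, the chondroitin proteoglycan cpg-19, the C-type lectin clec-230 and the glutamine-rich pqn-29 and pqn-67. ora-1 had 200.6 at 20 h, 181 at 28 h and 200.7 at 36 h, against 1.92 at 24 h and 2.33 at 32 h normalised CPM, near level within each phase, and a log2 difference of 6.52 ± 0.17 (SE, adjusted p = 0.00216). mab-7 had 157 at 20 h, 109 at 28 h and 212 at 36 h, against 1.15 at 24 h and 1.69 at 32 h and a log2 difference of 6.81 ± 0.40 (SE). Several of the others rest on few counts in the low phase. The ratio of scaled counts was 163 (95% exact interval 96.8 to 298) for cpg-19, 156 (84.6 to 326) for pqn-29, 148 (68.0 to 405) for pqn-67 and 125 (65.9 to 275) for clec-230, against 14, 10, 6 and 9 counts at 24 and 32 h.

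**Figure D4:**
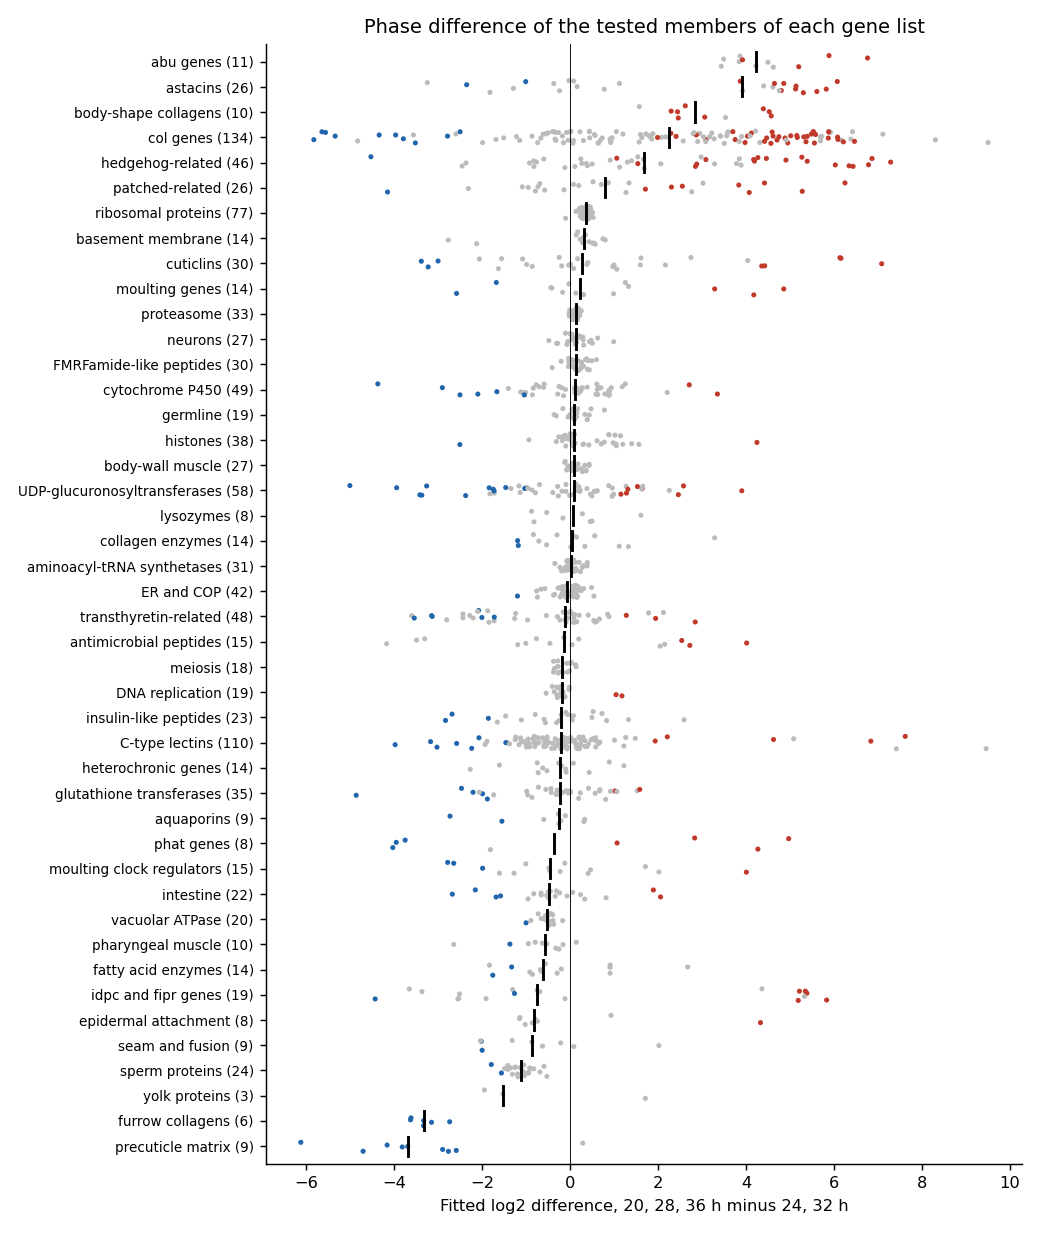
Each point is 1 tested gene of a list (number of genes in parentheses), placed by its fitted log2 difference (x axis, 20, 28, 36 h minus 24, 32 h), red where called higher at 20, 28 and 36 h, blue where called higher at 24 and 32 h and grey where not called; the bar is the list's median. The medians run from 4.22 for abu genes to -3.70 for the precuticle matrix, while those of body-wall muscle, neurons, germline and ribosomal proteins lie between 0.08 and 0.36.

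Of 15 transcription factors tied to moulting cycles, 3 were higher at 24 and 32 h and 1 at 20, 28 and 36 h (3.88% and 4.9% of all tested genes). The median was -0.47 log2. myrf-1, a membrane-bound factor needed for larval moults, had 492 at 24 h and 416 at 32 h, against 137 at 20 h, 104.5 at 28 h and 98.9 at 36 h normalised CPM, and its log2 difference was -1.99 ± 0.10 (SE, adjusted p = 0.00472). The nuclear receptor nhr-23, needed for moulting, had 69 at 24 h and 62.5 at 32 h, against 6.28 at 20 h, 8.0 at 28 h and 23.1 at 36 h. Its 36 h library was the highest of the 3 low ones and the groups did not overlap, with a difference of -2.65 ± 0.38 log2 (SE, adjusted p = 0.0302). The nuclear receptor nhr-91 had 78.5 at 24 h and 40.5 at 32 h, against 14.1 at 20 h, 8.99 at 28 h and 4.05 at 36 h and -2.79 ± 0.15 log2 (SE). The zinc finger factor bed-3 alone of the 15 was called higher at 20, 28 and 36 h, with 97.4 at 20 h, 45.2 at 28 h and 72.9 at 36 h, against 6.65 at 24 h and 2.74 at 32 h and 4.01 ± 0.51 log2 (SE, adjusted p = 0.0236). bed-3 and nhr-23 were not called without the 20 h library, where 1 and 2 of the 15 were called. Without the 28 h library 3 and 5 of the 15 were called, without the 36 h library 1 and 5, and with no time term 0 and 1.

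The other 11 regulators were not called by edgeR's quasi-likelihood test. lin-42, the worm's relative of the fly clock gene period, had 215 at 24 h and 131 at 32 h, against 89.1 at 20 h, 34.8 at 28 h and 46.8 at 36 h normalised CPM, with groups that did not overlap and a log2 difference of -1.61 ± 0.31 (SE, adjusted p = 0.0567). It was called by DESeq2, by limma on the deposited values, with total counts alone, quadratic time or all 10 libraries, and without the 28 h or the 36 h library. The nuclear receptor nhr-25 had 51.3 at 20 h, 40.3 at 28 h and 9.49 at 36 h, against 11.7 at 24 h and 4.29 at 32 h, with its 36 h library below the 24 h library. This gene was called by DESeq2, with quadratic time and without the 20 h or the 28 h library. The Grainyhead factor grh-1 differed by -0.23 ± 0.29 log2, the zinc finger factor blmp-1 by -0.47 ± 0.24 and the nuclear receptor nhr-85 by 0.41 ± 0.15 (SE). None of 14 heterochronic genes, which set the identity of larval stages, was called by edgeR's quasi-likelihood test, with a median of -0.23 log2 and 4 unadjusted p under 0.05. DESeq2 called 1 and 2, limma on the deposited values 0 and 1, and without the 28 h library 0 and 3 were called. lin-28, an RNA-binding regulator, differed by -0.26 ± 0.21 and lin-14 by 0.07 ± 0.25 log2 (SE). The seam and fusion list had 2 of 9 called, the cell fusion protein eff-1 at -2.0 log2 and the co-factor bro-1 at -2.02 log2. Both were called higher at 24 and 32 h, and neither was called without the 20 h library. bro-1 had 4.18 at 24 h and 1.5 at 32 h normalised CPM. At 20, 28 and 36 h it had 2.6, 0.542 and 0.121, so its groups overlapped. Its time trend over the 16 h was -3.88 log2. This gene was also not called without the 36 h library, with no time term or by limma.

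Among intestinal genes 4 of 22 were higher at 24 and 32 h and 2 at 20, 28 and 36 h (3.88% and 4.9% of all tested genes). The median was -0.47 log2, and the calls included cathepsin B-like proteases on both sides. cpr-4 had 1943 at 24 h and 2663 at 32 h, against 198 at 20 h, 397 at 28 h and 538 at 36 h normalised CPM and a log2 difference of -2.68 ± 0.17 (SE, adjusted p = 0.0059). cpr-1 had 528 at 24 h and 318 at 32 h, against 68 at 20 h, 116 at 28 h and 96.5 at 36 h. cpr-6 had 1174 at 20 h, 903 at 28 h and 1665 at 36 h, against 271 at 24 h and 330.4 at 32 h, in the opposite phase, and a log2 difference of 2.06 ± 0.25 (SE). None of the 3 overlapped between groups, but cpr-6 was not called without the 20 h library and cpr-1 not without the 36 h library. With no time term 2 and 2 of the 22 were called. The intestinal GATA factor elt-2 had a log2 difference of -0.31 ± 0.13 (SE) and was not called. Of the enzymes of long-chain fatty acids 2 of 14 were called, the desaturases fat-3 at -1.76 and fat-4 at -1.33 log2, both higher at 24 and 32 h. fat-4 was not called without the 20 h library, where 1 enzyme was called in each direction. Without the 28 h library 2 were called in each direction. Without the 36 h library 1 was called at 24 and 32 h, and with no time term none.

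The vacuolar ATPase, a proton pump of many subunits, had 1 of 20 genes called. All 20 differences were negative under each of 3 scalings, with a median of -0.52 log2, and 19 had an unadjusted p under 0.05. vha-5, whose product also serves at the apical face of the epidermis, had 495 at 24 h and 485 at 32 h, against 282 at 20 h, 249 at 28 h and 200.3 at 36 h normalised CPM and a log2 difference of -1.0 ± 0.13 (SE, adjusted p = 0.0205). It was not called without the 20 h or the 36 h library, with no time term, quadratic time, median-ratio factors, no filter or a minimum mean of 50 counts, or by DESeq2. Of 9 aquaporins, aqp-8 and aqp-7 were higher at 24 and 32 h (3.88% of all tested genes). aqp-8, a channel of the excretory canal, had 164 at 24 h and 211 at 32 h, against 35.9 at 20 h, 31.1 at 28 h and 19.6 at 36 h and a log2 difference of -2.73 ± 0.28 (SE), and without the 20 h library 1 aquaporin was called.

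Antimicrobial peptides of the epidermis had 3 of 15 genes higher at 20, 28 and 36 h and none at 24 and 32 h (4.9% and 3.88% of all tested genes). The median of the 15 was -0.14 log2. nlp-33 had 276 at 20 h, 408 at 28 h and 621 at 36 h, against 58.4 at 24 h and 68 at 32 h normalised CPM, with a log2 difference of 2.72 ± 0.15 (SE, adjusted p = 0.005). nlp-34 had 33.5 at 20 h, 72.5 at 28 h and 47.2 at 36 h, against 8.96 at 24 h and 8.8 at 32 h. The remaining call was nlp-25 at 4.01 log2, with 10 counts in all at 24 and 32 h. Leaving out the 28 h library, 5 peptides were called higher at 24 and 32 h, and with no time term 1 was called, at 20, 28 and 36 h.

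Of 8 epidermal attachment genes, mup-4 alone was called. mup-4, a transmembrane protein that joins the epidermis to the cuticle, had 1408 at 20 h, 2010.0 at 28 h and 1525 at 36 h, against 92.1 at 24 h and 74.8 at 32 h normalised CPM and a log2 difference of 4.33 ± 0.29 (SE, adjusted p = 0.00637). Its list had a median of -0.83 log2, and let-805, another member, had -0.86 ± 0.10 (SE) and passed the adjusted p but not the size. Among conjugating enzymes, 8 of 58 UDP-glucuronosyltransferases were higher at 20, 28 and 36 h and 11 at 24 and 32 h. Of 35 glutathione transferases 2 and 5 were called (5.71% and 14.3%), and of 49 cytochrome P450 genes 2 and 6 (4.08% and 12.2%). Over all tested genes the shares were 4.9% and 3.88%. ugt-6 had 42 at 20 h, 52.2 at 28 h and 59.6 at 36 h, against 2.53 at 24 h and 4.47 at 32 h, and ugt-57 had 75.6 at 24 h and 53.5 at 32 h, against 6.49 at 20 h, 1.58 at 28 h and 0.665 at 36 h in the opposite phase. With 20, 28 or 36 h left out, 4 to 11 and 3 to 14 UDP-glucuronosyltransferases, 0 to 4 and 3 to 8 glutathione transferases and 1 to 6 and 1 to 6 cytochrome P450 genes were called. With no time term these were 5 and 2, 0 and 3, and 0 and 1.

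Most of the following tissue and housekeeping lists had no call, while those of pharyngeal muscle and DNA replication had some. Over all tested genes, 4.9% were called higher at 20, 28 and 36 h and 3.88% at 24 and 32 h. Of 27 genes of body-wall muscle edgeR's quasi-likelihood test called 0, with a median of 0.08 log2 and 5 unadjusted p under 0.05, and the muscle myosin unc-54 had 8063 at 20 h, 8107 at 28 h and 9112 at 36 h, against 5464 at 24 h and 7926 at 32 h normalised CPM and 0.36 ± 0.18 log2 (SE). None of 27 neuronal genes, 30 FMRFamide-like peptides, 19 germline genes, 18 meiosis genes, 31 aminoacyl-tRNA synthetases or 33 proteasome subunits was called by edgeR's quasi-likelihood test, and their medians lay between -0.18 and 0.14 log2. In the same order 4, 0, 1, 0, 3 and 0 had an unadjusted p under 0.05, and neither DESeq2 nor limma called any of these or of the muscle genes. With the 28 h library left out, 1 neuronal gene was called higher in the phase of 20 and 36 h and 1 meiosis gene at 24 and 32 h. With the 36 h library left out, 1 proteasome subunit was called higher at 20 and 28 h. With total counts alone the medians of the muscle, neuronal, peptide, germline, synthetase and proteasome lists became negative. In the pharyngeal muscle list 1 of 10 was called, the troponin C gene tnc-2 at -1.37 log2, 9 of 10 differences were negative, and 0 were called without the 20 h library or with no time term and 4 without the 28 h library. Of 77 genes for ribosomal proteins edgeR's quasi-likelihood test, DESeq2 and limma each called 0, although 76 differences were positive, with a median of 0.36 log2 (0.17 with total counts alone) and 26 unadjusted p under 0.05. Their median was 0.48 log2 in the first cycle and 0.18 in the second. Summed normalised CPM was 73400 at 24 h and 99900 at 32 h. At 20, 28 and 36 h it was 98000, 104000 and 122000. Among 19 genes of DNA replication the median was -0.20 log2, with 2 differences positive and 17 negative. The 2 positive ones, the ribonucleotide reductase rnr-2 (1.18 log2) and the geminin gmn-1 (1.04 log2), were called higher at 20, 28 and 36 h. Neither was called with median-ratio factors or total counts alone, by limma on the deposited values, without the 20 h or the 36 h library, or with no time term.

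The linear time term showed which genes drifted within a phase. Over the 16 h 1450 genes rose (10.6%) and 338 fell (2.48%), with 81.1% of calls rising (66.6% with total counts alone), and no gene was called by edgeR's quasi-likelihood test without the 32 h or without the 36 h library, at 2100 and 2018 unadjusted p under 0.05. Without the 20 h library 926 and 26 were called, without the 24 h library 550 and 4, and without the 28 h library 1997 and 828. All 24 tested major sperm protein genes, 12 of 18 meiosis genes and 8 of 19 germline genes rose, while 10 of 27 neuronal genes and 9 of 30 FMRFamide-like peptides fell. The sperm protein msp-64 had no count at 20 and 24 h and 0.542, 29.7 and 271 normalised CPM at 28, 32 and 36 h. Of this list, msp-49 and msp-50 were among the genes called higher at 24 and 32 h, and their direction did not hold with no time term. msp-64 was at least 1740-fold higher at 36 h than 3 counts in the 20 h library, and the collagen col-175 at least 24400-fold. The largest falls included daf-12, a nuclear receptor of developmental timing, with 53.8 at 20 h, 13.1 at 28 h and 6.34 at 36 h, against 50.2 at 24 h and 11.3 at 32 h, and the insulin-like ins-5, with 14.3 at 20 h, 3.8 at 28 h and 1.21 at 36 h, against 24.1 at 24 h and 9.3 at 32 h. daf-12 fell by 3.37 log2 over the 16 h and ins-5 fell by 3.39.

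The alternating genes were also followed in the other 5 libraries, where most of those tested were not called. There, 22 and 30 h were compared with 18, 26 and 34 h by the same test, with no library in common, and 986 of 13665 genes (7.22%) were higher at 22 and 30 h and 777 (5.69%) at 18, 26 and 34 h. Of the 669 genes higher at 20, 28 and 36 h, 661 were tested there: 66 were higher at 22 and 30 h, 88 at 18, 26 and 34 h, and 507 were not called. Of the 529, 527 were tested, with 62, 117 and 348 in the same order.

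**Figure D5:**
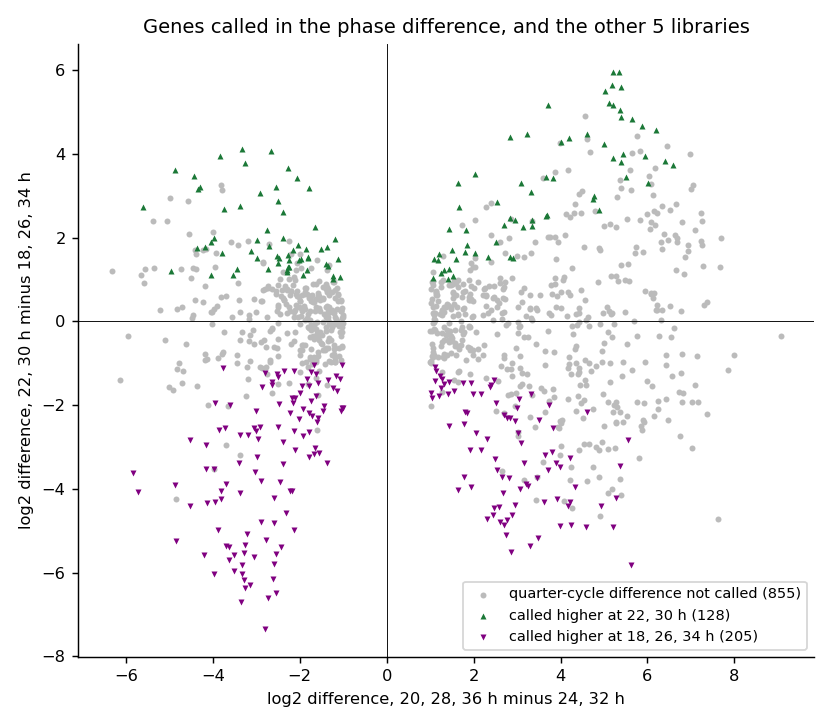
Each point is 1 gene called at 20, 28 and 36 h against 24 and 32 h and tested in the other 5 libraries, placed by that log2 difference (x axis) and its log2 difference of 22, 30 h minus 18, 26, 34 h (y axis); green upward triangles were called higher at 22 and 30 h (128), purple downward triangles higher at 18, 26 and 34 h (205) and grey points not called (855). Genes of either phase lie both above and below 0 on the y axis, and the gap around 0 on the x axis is the minimum size of a call.

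Lists of opposite phases could share a direction in the other libraries, and genes of one phase could differ there. All 6 furrow collagens were higher at 18, 26 and 34 h than at 22 and 30 h, with a median of -5.93 log2, and dpy-7 had 835 at 18 h, 714 at 26 h and 621 at 34 h, against 9.87 at 22 h and 15.4 at 30 h normalised CPM. Of the 9 precuticle genes 6 were higher at 18, 26 and 34 h, but fbn-1 was not called (-1.40 log2), and dpy-6 had 1.21 log2. Of the 10 body-shape collagens 6 were also higher at 18, 26 and 34 h, with a median of -4.54 log2, and sqt-3 had 2381 at 18 h, 6857 at 26 h and 7219 at 34 h, against 167 at 22 h and 189.8 at 30 h. Of the 19 idpc and fipr genes 16 were higher at 22 and 30 h, and none at 18, 26 and 34 h. idpc-1 had 1.43 at 18 h, 24.7 at 26 h and 36.2 at 34 h, against 216 at 22 h and 186 at 30 h, but its difference of 4.07 log2 was not called (adjusted p = 0.0772). grh-1, not called at 20, 28 and 36 h against 24 and 32 h, had 184 at 18 h, 155 at 26 h and 106 at 34 h, against 11.6 at 22 h and 8.45 at 30 h and -3.86 log2 here (adjusted p = 0.000923), and lin-42 -3.08 log2 (adjusted p = 0.00182). Without the 22 h library 194 and 233 genes were called in these 5 libraries, without the 30 h library 471 and 412, without the 34 h library 494 and 427, and with no time term 530 and 508.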

How the data were processed

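Worms were washed off plates, monosomes were purified and gel-cut RNA of about 28-30 nucleotides was sequenced, per the labels' protocols. The authors deposited raw footprint counts for each gene in each library, with no scaling. They also deposited normalized log2 values, which matched counts scaled to the mean library total with 8 added to within 5e-05 log2. The submitters' processing notes name Bowtie without a version. The build, gene models, counting rule and treatment of reads with several matches are not given in the sources used, and coordinates are left out. Of 20182 gene identifiers, 18778 were matched to a symbol and 1404 were not (1.15% of counts).

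A gene entered the tests if at least 2 of the 5 libraries had a CPM above that of 10 counts at the median depth. Software was edgeR 4.0.16, DESeq2 1.42.0 and limma 3.58.1 under R 4.3.3, and Python 3.11.15. Counts were scaled with TMM, and edgeR's robust quasi-likelihood fit held an intercept, the phase and linear time, with Benjamini-Hochberg adjustment over every gene tested. Calls required 1 log2 or more (for time, over the 16 h) beside an adjusted p below 0.05. Cycle differences were taken on log2 CPM, prior count 2. Levels printed are CPM with factors from all 10 libraries. Intervals of count ratios are exact, at 95%, and cover counting error only.

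Members and the 44 gene lists were chosen with earlier results of these data known. Genes named are, per direction, the 12 largest called differences that had a gene-class symbol, 10 CPM or more on average, no overlap and at most 3 of one class, a set of regulators and markers, up to 3 called members and the member with the highest CPM of each list, and the 5 largest rises and falls with time. No sequence was printed and no promoter motif was searched. In simulated data with 50 genes changed at each size, 18%, 96%, 100% and 100% of genes changed by 1, 2, 4 and 6 log2 were called in the phase difference, with 5 false among 162 calls, on 13647 genes. For the trend these were 8%, 70%, 100% and 100%, with 9 false among 148. The changed genes were drawn from those with a mean of at least 50 counts. The spread was set by a gene's level alone, and every other gene had no phase difference and no trend. In the measured data, 506 of 1289 genes with at least 2 log2 were not called, so the simulated shares do not carry over to them. Alternatives were other scalings, filters, time terms, tests, all 10 libraries, thinning and leaving out each library in turn. Leaving out 24 or 32 h together with the time term was added after seeing the data.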

Additional observations from a re-analysis of the deposited data

Results flagged for a closer look

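col-19, a collagen of the adult cuticle, had a first-cycle difference of -1.27 log2 and a second-cycle difference of 3.01 log2. It was singled out because its libraries moved in opposite directions in the 2 cycles. It had 2.28, 6.98, 3.52, 3.06 and 176 normalised CPM at 20, 24, 28, 32 and 36 h, so the second value rests on the 36 h library. The difference between the cycles was not tested. Over all tested genes, 165 had cycles of opposite sign with at least 1 log2 in each.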

How the results depend on the processing

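No paired analysis was possible because each time has 1 library and replicate numbers only order the times within a group. Counts below are genes higher at 20, 28 and 36 h and at 24 and 32 h (669 and 529 as reported). Counts stayed within 1.5 times with other scalings, filters, tests, quadratic time, no minimum size and thinning. With all 10 libraries and an 8 h cosine and sine, 984 genes were higher at 24 and 32 h. With no time term the counts were 376 and 185, and leaving out each library in turn gave 0 to 1050 and 0 to 1025. Without the 24 h or the 32 h library and with no time term, both counts were 0, at 1420 and 1574 unadjusted p under 0.05. The cause was not tested. For the trend, total counts alone gave 687 falling genes, and leaving out each library gave 0 to 1997 rising and 0 to 828 falling. For 22 and 30 h against 18, 26 and 34 h, no time term gave 530 and 508, and leaving out each library gave 194 to 950 and 233 to 887. With total counts alone 66.9% of those calls were higher at 22 and 30 h, in place of 55.9%. Of 110 named genes with a call, 34 lost it without the 20 h library, 3 without 28 h and 21 without 36 h, and with no time term 48 lost it and 2 reversed. Of the named genes, 2 changed direction, msp-49 and msp-50, both near 0 counts before 32 h: msp-49 had 0.31 log2 with limma on log2 CPM and on the deposited values, 2.64 with no time term and 1.71 without 24 h and with no time term, and msp-50 had 0.03 with limma on the deposited values and 2.49 and 1.56 in the last 2. With 24 or 32 h left out, the group has 1 library, which is assumed to vary like the others. Genes with single-digit counts in a phase have wide count intervals, and PCR copies cannot be told from separate molecules.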

Other observations

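Among 178 gene classes with at least 8 tested members, a second view that uses symbols alone, the groundhog class grd had the largest share of genes called higher at 20, 28 and 36 h, 7 of 12 (58.3%, median 4.32 log2, against 4.9% of all tested genes). The classes and genes in this paragraph and the next were chosen after their values were seen. grd-14 had 336 at 20 h, 793 at 28 h and 511 normalised CPM at 36 h, against 8.35 at 24 h and 8.48 at 32 h, and grd-5 had 507, 857 and 879 against 27.1 and 60.0. Neither overlapped between groups. The disordered-protein class idpp had 8 of 16 called in that direction (50%) and 1 in the other. Lipases of the lips class had 4 of 10, namely lips-3, lips-6, lips-7 and lips-9, at 6.43, 5.74, 4.99 and 5.81 log2, and chondroitin proteoglycans of the cpg class had 4 of 11.

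At 24 and 32 h, 10 of 23 dpy genes were called (43.5%, against 3.88% of all tested genes), the 6 furrow collagens among them. Sodium-calcium exchangers of the ncx class had 3 of 8 called, ncx-8, ncx-1 and ncx-6, at -4.03, -1.62 and -1.46 log2. ncx-1 had 174 and 199.8 normalised CPM at 24 and 32 h, against 64.2 at 20 h, 60.5 at 28 h and 56.4 at 36 h, with no overlap. Short-chain dehydrogenases of the dhs class had 5 of 29 called in this direction and none in the other.

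C-type lectins had 5 of 110 called higher at 20, 28 and 36 h and 7 at 24 and 32 h (8 and 13 without the 28 h library, 2 and 3 with no time term). The 5 and 7 were 4.55% and 6.36%, against 4.9% and 3.88% of all tested genes. Transthyretin-related genes had 3 and 6 of 48, with 1 and 5 without the 20 h library, 5 and 14 without the 28 h library, 3 and 4 without the 36 h library and 2 and 0 with no time term. Of 23 insulin-like peptides 3 were higher at 24 and 32 h, ins-4, ins-5 and ins-11, with 1 called without the 20 h library, 2 without the 36 h library and none with no time term. Of 38 histone genes 1 was called in each direction, the linker histones hil-7 and hil-1, and hil-7 had 3 counts in all at 24 and 32 h, with a ratio of scaled counts of 20.5 (95% exact interval 6.81 to 102). Neither was called without the 20 h library, and hil-1 also not without the 36 h library or with no time term. Of the histone genes 3 and 0 were called without the 20 h library and 1 and 4 without the 28 h library. None of 14 basement membrane genes, 8 lysozymes or 3 yolk proteins was called by edgeR's quasi-likelihood test, with 9, 4 and 0 unadjusted p under 0.05. DESeq2 called 2, 0 and 0 of them, limma on log2 CPM none, and limma on the deposited values 2, 2 and 0, all higher at 24 and 32 h. With the 28 h library left out, 2 basement membrane genes were called higher at 24 and 32 h. In that fit 1 lysozyme and 1 yolk protein were called in the other direction. Leaving out 36 h gave 1 basement membrane gene, and leaving out 20 h gave 1 yolk protein, both higher at 24 and 32 h.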
